A study of Mus musculus with 11 samples.

Results

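The 10 genes described here are the receptors for glucocorticoids, the enzymes that set how much steroid reaches them, and genes whose transcription glucocorticoids are known to raise. They are Nr3c1, Nr3c2, Hsd11b1, Hsd11b2, Fkbp5, Tsc22d3, Per1, Sgk1, Zbtb16 and Errfi1. They were chosen by name, with earlier results of these data known. All 10 were measured, out of 30139 genes that could be tested (1 transcript cluster per gene, the brightest where a gene had several). RNA was taken from the adrenal medulla (4 arrays), the carotid body (3 arrays) and the superior cervical ganglion (4 arrays) of C57B6 mice, male and female, aged 2 months and with no treatment named. A carotid body array holds the pooled tissue of 10 mice and each other array that of 3 mice, so a replicate is a pool and its p-values measure the spread between pools, not between animals. The comparison asks whether the adrenal medulla, which receives blood from the steroid-making cortex around it, differs in these genes from a pair of related neural crest organs outside the adrenal gland.

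Glucocorticoids enter cells and bind the glucocorticoid receptor (Nr3c1) or, with higher affinity, the mineralocorticoid receptor (Nr3c2), which then move to the nucleus and bind response elements in DNA. The enzyme encoded by Hsd11b1 turns inactive 11-keto steroids back into active hormone inside the cell, using NADPH made by the product of H6pd, and the enzyme encoded by Hsd11b2 does the opposite. In chromaffin cells of the adrenal medulla, glucocorticoids from the cortex are known to sustain Pnmt, the enzyme that makes adrenaline.

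The promoter windows below are shown for a steroid receptor motif in Sgk1 and a clock motif in Per1 and Fkbp5. The Per1 and Fkbp5 windows shown held no receptor motif. The set of RefSeq (GRCm38.p6) start sites used here covered 7 of the 10 genes, with 16 windows of 250 bases upstream of a start. It held no window for Nr3c1, Zbtb16 or Hsd11b2. Each sequence runs 5′ to 3′ on the gene's strand and ends at the base before the start. Capitals mark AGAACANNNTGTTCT, a palindromic receptor element, in Sgk1 and the E-box CACGTG, bound by clock proteins, in Per1 and Fkbp5.
Sgk1, chr10:21993640-21993889, plus strand: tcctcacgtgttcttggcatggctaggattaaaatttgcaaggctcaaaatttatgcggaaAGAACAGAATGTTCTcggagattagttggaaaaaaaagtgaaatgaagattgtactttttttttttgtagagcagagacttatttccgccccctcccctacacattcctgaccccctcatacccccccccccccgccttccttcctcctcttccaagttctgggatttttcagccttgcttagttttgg
Per1, chr11:69098699-69098948, plus strand: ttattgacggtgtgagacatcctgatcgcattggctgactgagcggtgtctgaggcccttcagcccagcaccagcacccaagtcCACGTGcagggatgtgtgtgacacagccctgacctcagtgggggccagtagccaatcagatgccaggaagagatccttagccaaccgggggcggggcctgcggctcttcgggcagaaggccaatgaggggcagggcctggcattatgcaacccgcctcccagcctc
Fkbp5, chr17:28486150-28486399, minus strand: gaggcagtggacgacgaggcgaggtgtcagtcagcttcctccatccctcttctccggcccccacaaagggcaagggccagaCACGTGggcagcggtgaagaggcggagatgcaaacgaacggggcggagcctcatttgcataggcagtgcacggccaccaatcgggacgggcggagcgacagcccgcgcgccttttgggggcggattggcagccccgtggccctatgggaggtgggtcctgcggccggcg
The palindrome, which reads the same on both strands, began 189 bases before this Sgk1 start and was found in 3 of 32851 windows of this length (0.00913%). The other 5 Sgk1 windows and those of the other 6 genes lacked it. The E-box began 166 bases before a Per1 start and 169 bases before the Fkbp5 start, and 6.02% of all windows held it. The Sgk1 window also holds an E-box, in lower case, and the palindrome contains both orientations of the half-site AGAACA, which 16.1% of all windows hold on either strand. A Tsc22d3 window and a pair of further Sgk1 windows held the half-site alone. One Errfi1 window held TGACGTCA, the cAMP response element, as did 1.55% of all windows. These are letter matches in short windows and were not set against binding data.

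Values are log2 expression values as deposited. A gene was called when limma's Benjamini-Hochberg adjusted p, over all 30139 genes, was under 0.05 and the tissues differed by at least 1 on the log2 scale (2-fold). The background bound was 5.45 in ganglion, 5.38 in carotid body and 5.35 in adrenal medulla, the 95th percentile of 349 vomeronasal receptor and keratin-associated protein genes taken as silent. Of the 10 genes, 9 lay above the bound in every tissue and Hsd11b2 in none. Levels of different genes rest on different probes and are not compared. In these bulk samples, fewer cells of a type and less RNA per cell cannot be told apart. The dissected adrenal medulla carried cortical RNA: 10 of 11 measured cortical marker genes were called higher there than in either other tissue, with a list mean of 13.93 to 14.39 per adrenal array against 5.21 to 5.61 in ganglion and 5.33 to 5.72 in carotid body, where Cyp11b1, Star and Mc2r lay under the bound. The 7 measured sympathetic neuron markers were highest in the ganglion (list mean 14.87 to 15.37) and spread in carotid body from 10.46 to 12.73.

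Between carotid body and adrenal medulla, 1 of the 10 genes was called higher in carotid body (Tsc22d3) and 1 lower there (Fkbp5). Over all genes tested, 6.07% were called higher and 4.95% lower, or 10.2% and 8.37% of the 17765 genes above the bound in at least 1 tissue. Against the ganglion, 3 were called higher in carotid body (Nr3c1, Hsd11b1 and Errfi1) and 0 lower, beside 5.61% and 8.28% of all genes and 9.5% and 14% of those above the bound. The adrenal medulla exceeded the ganglion in 3 as well (Fkbp5, Zbtb16 and Hsd11b1) and was below it in 0, beside 5.72% and 7.51% of all genes and 9.69% and 12.7% of those above the bound. At an unadjusted p under 0.05 in limma, with no limit on size, 0 were lower in carotid body than in ganglion and 1, Tsc22d3, was lower in adrenal medulla. The median difference of the 10 genes was -0.17 for carotid body minus adrenal medulla, 0.79 for carotid body minus ganglion and 0.95 for adrenal medulla minus ganglion, where the medians of all genes were 0.05, -0.02 and -0.08. These comparisons share arrays, so their counts are not independent. The list did not move as a block: Fkbp5 and Hsd11b1 were highest in adrenal medulla, whereas Tsc22d3, Nr3c1 and Errfi1 were highest in carotid body.

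**Figure D1:**
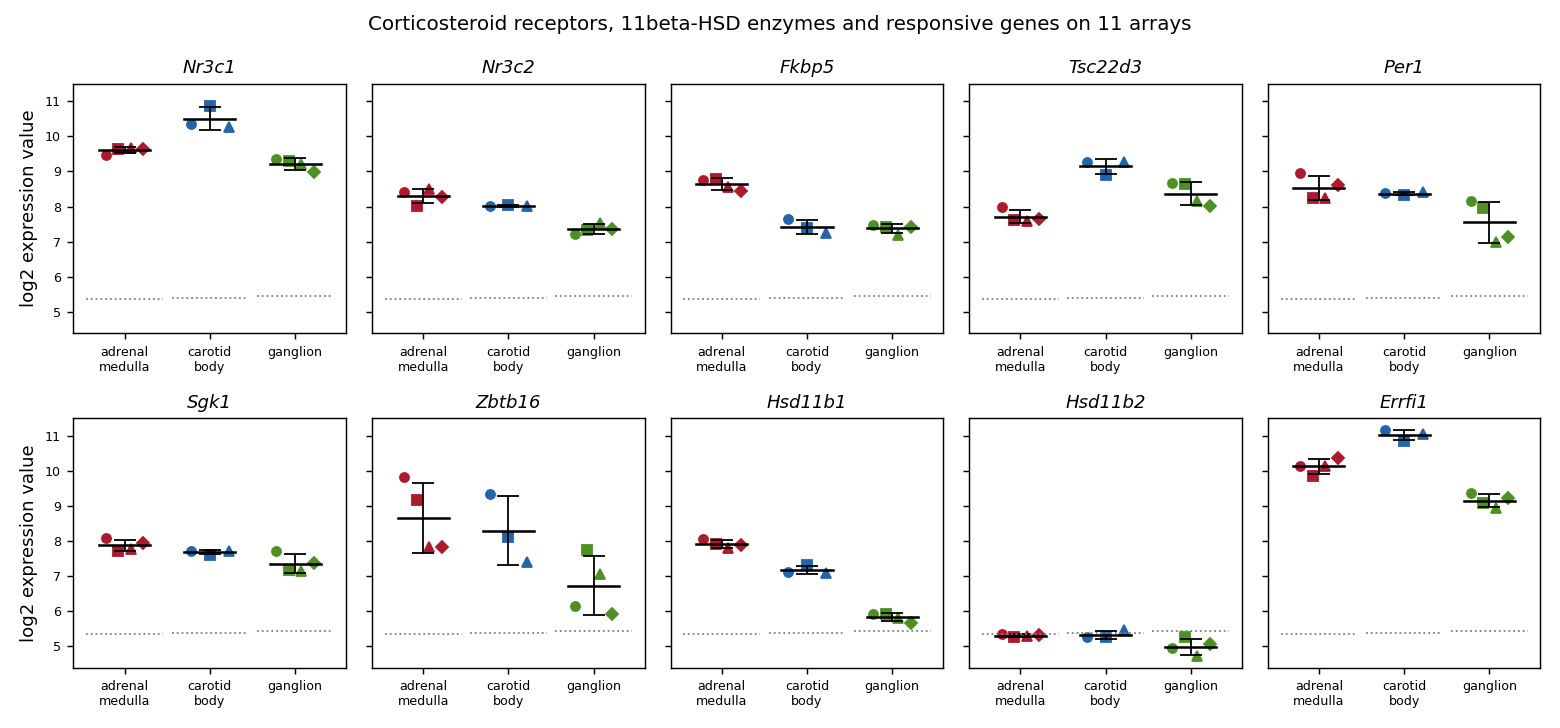
Log2 expression value (vertical axis, 1 scale for all panels) of the 10 genes on each of the 11 arrays, by tissue; circle, square, triangle and diamond are replicates 1 to 4, black lines the mean and SD, dotted lines the background bound. Nr3c1, Tsc22d3 and Errfi1 are highest in carotid body, Fkbp5 and Hsd11b1 in adrenal medulla, Zbtb16 spreads widely within each tissue, and Hsd11b2 sits at the bound.

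Nr3c1 (transcript cluster TC1800001243.mm.1), which encodes the glucocorticoid receptor, was most abundant in carotid body. Its arrays read 10.35, 10.88 and 10.27 in carotid body, 9.48, 9.63, 9.66 and 9.65 in adrenal medulla, and 9.36, 9.30, 9.21 and 8.99 in ganglion. No array of one tissue overlapped those of another. Carotid body (10.50 ± 0.33, SD, n = 3) exceeded ganglion (9.21 ± 0.16, n = 4) 2.45-fold (log2 1.29, SE 0.14, limma adjusted p = 4.17e-05). It exceeded adrenal medulla (9.61 ± 0.08, n = 4) by 0.89 (SE 0.14, limma adjusted p = 0.000713), which passed the p threshold but fell short of the 2-fold limit. That difference was 1.01 without carotid body replicate 3 and 1.00 after quantile normalization, both past the limit. Adrenal medulla exceeded ganglion by 0.40 (SE 0.13, limma adjusted p = 0.0401). The adrenal medulla arrays, which also held cortical RNA, thus read an intermediate level of receptor transcript.

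Nr3c2 (TC0800000854.mm.1), the mineralocorticoid receptor gene, had a different order, with the ganglion lowest. Its values were 8.40, 8.02, 8.49 and 8.27 in adrenal medulla, 8.01, 8.04 and 8.00 in carotid body, and 7.21, 7.34, 7.52 and 7.36 in ganglion. The first pair of tissues overlapped, and the ganglion lay below both on every array. The neighbours at the top did not differ beyond their spread (carotid body minus adrenal medulla -0.28, SE 0.11, limma adjusted p = 0.0928). Adrenal medulla exceeded ganglion by 0.94 (SE 0.10, limma adjusted p = 3.25e-05) and carotid body did so by 0.66 (SE 0.11, limma adjusted p = 0.000834), both under the 2-fold limit. The former was 1.03 without adrenal medulla replicate 2. Other genes of the mineralocorticoid pathway gave no common direction: of 6 measured, Scnn1b, a subunit of the epithelial sodium channel, averaged 6.23 ± 0.60 in carotid body and was called higher there than in both other tissues, where it lay under the bound, and carotid body replicate 3 decided both calls (0 genes higher without it). Atp1b1, a sodium pump subunit, was lower than in ganglion by 2.45 in carotid body and by 2.57 in adrenal medulla. Nedd4l, the ubiquitin ligase that Sgk1 inhibits, was 3.25-fold lower in adrenal medulla than in ganglion.

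Chaperones and co-regulators that act with the receptor were also read. Of 8 chaperone genes measured, Stip1, the organiser of HSP70 and HSP90, had 2.44-fold less signal in carotid body than the adrenal arrays (limma adjusted p = 0.0195). Against ganglion, carotid body was lower in Stip1 (2.69-fold) and in Fkbp4 (2.96-fold), the immunophilin of the receptor complex that moves to the nucleus. The first call was lost without carotid body replicate 2 or replicate 3 (0 genes). The list's median differences were -0.13, -0.43 and, for adrenal medulla minus ganglion, -0.26, with 0 genes called in that last comparison. Of 7 co-regulator genes, the acetyltransferases Ep300 and Crebbp were higher than in ganglion by 1.82 and 1.22 in adrenal medulla and by 1.16 and 1.30 in carotid body. Ncoa1, a p160 co-activator, was 2.50-fold higher in adrenal medulla than in ganglion. Ppargc1a, the co-activator of mitochondrial genes, was 5.52-fold lower in adrenal medulla than in carotid body and 6.30-fold lower than in ganglion.

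Hsd11b1 (TC0100003836.mm.1), the enzyme that regenerates active glucocorticoid, showed the widest separation of the 10 genes, in the order adrenal medulla, carotid body, ganglion. Its values were 8.07, 7.92, 7.80 and 7.90 in adrenal medulla, 7.13, 7.31 and 7.10 in carotid body, and 5.94, 5.93, 5.81 and 5.68 in ganglion, not far above the bound of 5.45. The tissues did not overlap. Adrenal medulla exceeded ganglion 4.24-fold (log2 2.09, SE 0.09, limma adjusted p = 1.63e-08) and carotid body exceeded it 2.54-fold (log2 1.34, SE 0.10, limma adjusted p = 2.16e-06). Carotid body was below adrenal medulla by 1.67-fold (log2 -0.74, SE 0.10, limma adjusted p = 0.000155), short of a call.

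H6pd, the reductive partner of Hsd11b1 in the endoplasmic reticulum, followed the same order. It read 8.70, 9.12, 9.03 and 8.92 in adrenal medulla, 7.68, 7.68 and 7.64 in carotid body, and 6.63, 6.83, 6.78 and 6.68 in ganglion. Again no tissues overlapped. H6pd was 4.63-fold higher in adrenal medulla than in ganglion (limma adjusted p = 1.43e-08) and 2.42-fold higher than in carotid body (limma adjusted p = 3.36e-06), and it was higher in carotid body than in ganglion by 0.94 (limma adjusted p = 2.86e-05), short of a call. After each gene's mean was subtracted, the root mean square difference between the 11 values of H6pd and of Hsd11b1 was 0.27, rank 71 among 19046 protein-coding genes. The closest were Selenbp1 (0.10), a selenium-binding protein, Robo4 (0.12), an endothelial receptor, and Dach1 (0.13), a transcriptional co-factor, with arrays that share tissue composition. Of 8 endothelial markers, 7 were called higher in adrenal medulla and 8 in carotid body than in ganglion, with a list mean of 11.39 to 11.76, 11.01 to 11.13 and 7.42 to 7.74 per array. Between carotid body and adrenal medulla they split: Pecam1, Cdh5 and Vwf were called higher in carotid body and Kdr, Plvap, Emcn and Tek lower. Vwf was lower in adrenal medulla (6.45 ± 0.14) than in ganglion (7.23 ± 0.06), short of a call. The part of endothelial or cortical cells in the Hsd11b1 and H6pd differences was not tested.

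**Figure D2:**
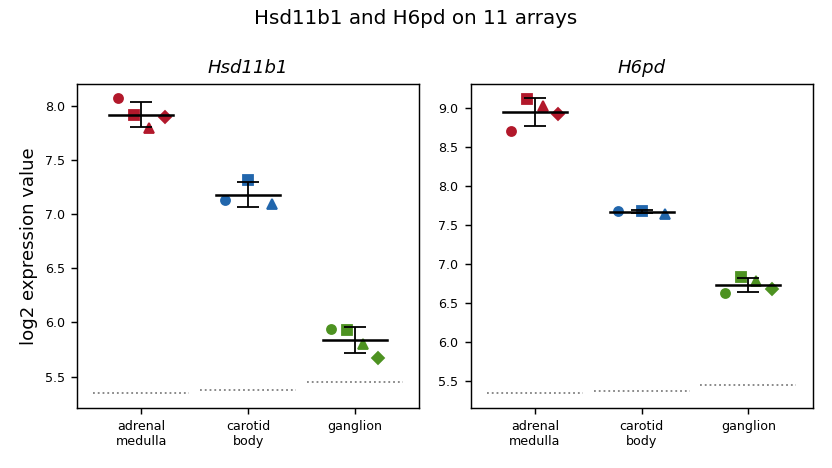
Log2 expression value of Hsd11b1 and H6pd on each array, by tissue, with mean and SD (black) and the background bound (dotted). Both genes step down from adrenal medulla to carotid body to ganglion with no overlap.

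Hsd11b2 (TC0800001219.mm.1), the inactivating enzyme, was not distinguishable from background. It read 5.35, 5.26, 5.29 and 5.34 in adrenal medulla, 5.26, 5.26 and 5.46 in carotid body, and 4.95, 5.26, 4.71 and 5.06 in ganglion. All 3 means lay under the bound and no fold is given. Among 6 other genes of steroid handling, Abcb1b, a P-glycoprotein that can export steroids and drugs, averaged 17.80 ± 0.21 in adrenal medulla against 8.01 ± 0.25 in ganglion and 7.91 ± 0.09 in carotid body. With H6pd it made up the 2 genes of that list called higher in adrenal medulla than in carotid body and the 2 called higher than in ganglion. It moved together with the cortical markers, and whether its transcripts came from cortex or medulla was not tested.

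Fkbp5 (TC1700001757.mm.1), which encodes FKBP51, an HSP90 co-chaperone that lowers the receptor's affinity for hormone and is itself strongly induced by it, was higher in adrenal medulla than in either other tissue. The adrenal arrays read 8.76, 8.79, 8.55 and 8.44, the carotid body arrays 7.63, 7.38 and 7.25, and the ganglion arrays 7.48, 7.43, 7.17 and 7.41. Every adrenal array lay above every other array. Adrenal medulla exceeded carotid body 2.32-fold (carotid body minus adrenal medulla -1.21, SE 0.12, limma adjusted p = 2.61e-05) and ganglion 2.40-fold (log2 1.26, SE 0.11, limma adjusted p = 6.08e-06). Carotid body and ganglion did not differ beyond their spread (0.05, SE 0.12, limma adjusted p = 0.81). Both calls held under every alternative tried, with sizes of -1.36 to -1.07 and 1.12 to 1.35. Among the 10 genes it was the only one called higher in adrenal medulla than in carotid body. The adrenal arrays also held cortical RNA, and whether the extra Fkbp5 transcripts came from cortex or medulla was not tested.

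Tsc22d3 (TC0X00003075.mm.1), which encodes the anti-inflammatory leucine zipper protein GILZ, ran the other way. It read 9.26, 8.90 and 9.26 in carotid body, 8.68, 8.63, 8.15 and 8.01 in ganglion, and 7.98, 7.62, 7.60 and 7.64 in adrenal medulla. The tissues did not overlap, although adrenal medulla replicate 1 was close to the lowest ganglion array. Carotid body exceeded adrenal medulla 2.70-fold (log2 1.43, SE 0.18, limma adjusted p = 0.000125) and ganglion by 0.77 (SE 0.18, limma adjusted p = 0.0059). Adrenal medulla was below ganglion by 1.58-fold (log2 -0.66, SE 0.17, limma adjusted p = 0.0098), short of a call.

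Errfi1 (TC0400001990.mm.1), a feedback inhibitor of EGF receptor signalling that glucocorticoids induce, also peaked in carotid body. It read 11.17, 10.87 and 11.05 there, 10.14, 9.86, 10.14 and 10.39 in adrenal medulla, and 9.39, 9.08, 8.94 and 9.24 in ganglion, with no overlap. Carotid body exceeded ganglion 3.66-fold (log2 1.87, SE 0.14, limma adjusted p = 3.3e-06). Its lead over adrenal medulla was 0.90 (SE 0.14, limma adjusted p = 0.000624) and that of adrenal medulla over ganglion 0.97 (SE 0.13, limma adjusted p = 0.000139), both just under the 2-fold limit. The former reached 1.00 after quantile normalization. The latter passed the limit without adrenal medulla replicate 2 (1.06) and without ganglion replicate 1 (1.05). The genes most like it over the 11 arrays were Slco2a1 (root mean square difference 0.19), a prostaglandin transporter, Hgf (0.19), hepatocyte growth factor, and 9930111J21Rik2 (0.20). In carotid body, the 7 fibroblast markers were all called higher than in either other tissue (list mean 14.09 to 14.25 per array against 8.73 to 8.91 in adrenal medulla and 10.02 to 10.35 in ganglion). The 8 adipocyte markers had 7 called higher there than in either other tissue (9.53 to 10.24 against 5.88 to 6.02 and 6.93 to 7.17), with Lep under the bound in all 3 tissues. The 8 smooth muscle and pericyte markers had 6 higher than in adrenal medulla and 7 higher than in ganglion (10.81 to 11.32 against 7.77 to 7.87 and 6.63 to 6.82). All 6 measured glial markers were called lower in adrenal medulla than in carotid body and ganglion. Their list means per array were 8.28 to 8.47, 11.26 to 11.67 and 11.07 to 11.97 in that order. Between carotid body and ganglion 1 of the 6, Fabp7, was called, higher in ganglion. Adrenal medulla, lowest in Tsc22d3, had the lowest list mean for glial, fibroblast, adipocyte and sympathetic neuron markers alike. Of these lists, those of fibroblasts and adipocytes had the full order of Tsc22d3, with ganglion between the other tissues. Glial list means of carotid body and ganglion overlapped. The part of these cells, and of cortical cells on the adrenal arrays, in the tissue differences of Nr3c1, Tsc22d3 and Errfi1 was not tested.

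**Figure D3:**
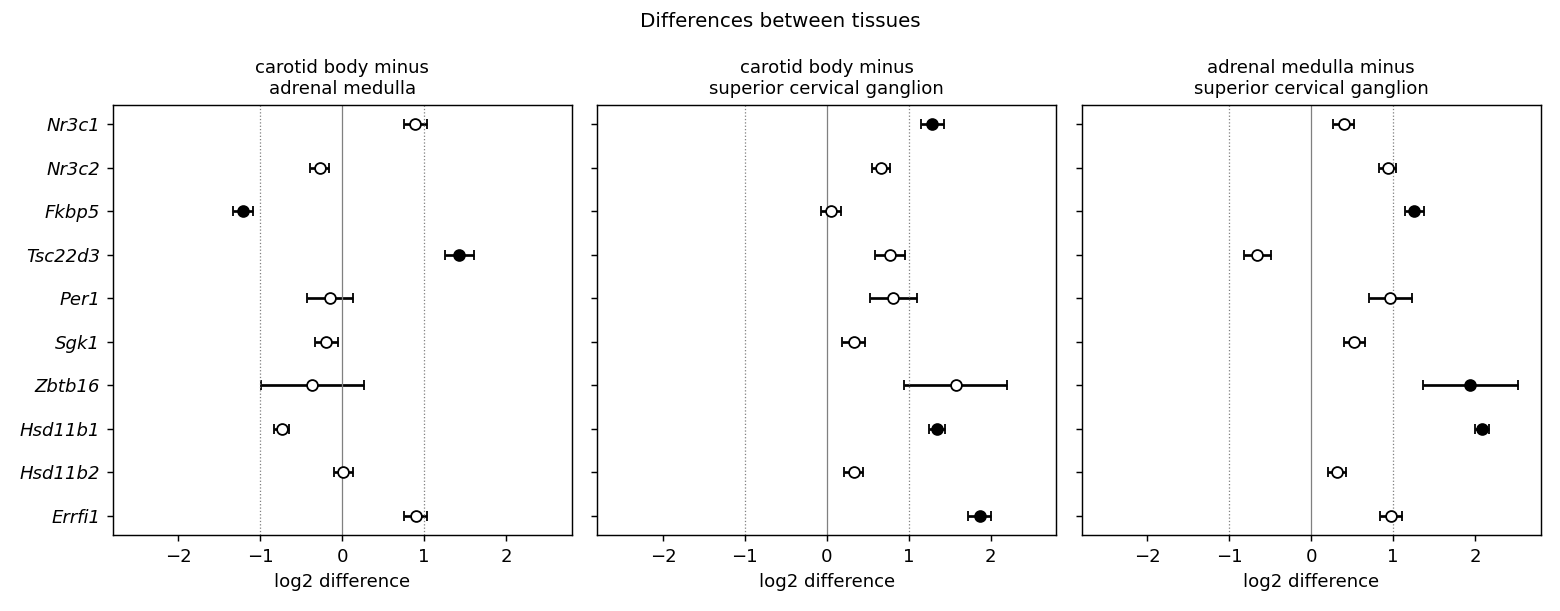
Log2 difference between tissues for the 10 genes in each of the 3 comparisons; bars are the standard error from the limma fit, filled points were called, dotted lines mark the 2-fold limit. Fkbp5 and Tsc22d3 were called in opposite directions between carotid body and adrenal medulla, and the wide bars of Zbtb16 set it apart from the other genes.

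Sgk1 (TC1000000171.mm.1), a kinase induced through both receptors and the gene whose promoter window above holds the palindrome, varied least among the 9 genes above the bound. It read 8.09, 7.73, 7.79 and 7.94 in adrenal medulla, 7.73, 7.62 and 7.73 in carotid body, and 7.73, 7.19, 7.14 and 7.39 in ganglion. Carotid body and ganglion overlapped, and adrenal medulla met each of them only at 1 shared value, 7.7276. Adrenal medulla exceeded ganglion by 0.52 (SE 0.13, limma adjusted p = 0.00884), and the other differences, -0.19 for carotid body minus adrenal medulla and 0.33 for carotid body minus ganglion, had adjusted p-values of 0.353 and 0.0976. One value, 7.7276, was listed on 4 arrays in all 3 tissues (adrenal medulla 2, carotid body 1 and 3, ganglion 1). Repeats also occurred in Hsd11b2 (5.2568 on 4 arrays), Per1 (8.2564 on adrenal medulla 2 and 3) and Zbtb16 (7.8331 on adrenal medulla 3 and 4). Of the genes above the bound, 12.1% have a value that recurs on at least 4 arrays to 5 decimals, and how such repeats arose was not tested.

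Per1 (TC1100000900.mm.1), a repressor in the circadian clock that glucocorticoids also induce, was lower in ganglion but split within it. It read 8.97, 8.26, 8.26 and 8.60 in adrenal medulla, 8.38, 8.32 and 8.41 in carotid body, and 8.16, 7.95, 6.99 and 7.12 in ganglion. Ganglion replicates 1 and 2 lay close to the other tissues and replicates 3 and 4 well below them, with no overlap. Adrenal medulla exceeded ganglion by 0.97 (SE 0.26, limma adjusted p = 0.0141) and carotid body did so by 0.82 (SE 0.28, limma adjusted p = 0.0453), neither called. The first passed the 2-fold limit without ganglion replicate 1 (1.17) or 2 (1.10) and without adrenal medulla replicate 2 or 3 (1.05 each), and the second did without ganglion replicate 1 (1.02). Carotid body and adrenal medulla differed by -0.15 (SE 0.28, limma adjusted p = 0.742).

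Zbtb16 (TC0900002241.mm.1), a zinc finger repressor (PLZF) that hormone induces strongly in many cells, had the widest spread within tissues. It read 9.84, 9.17, 7.83 and 7.83 in adrenal medulla, 9.35, 8.14 and 7.41 in carotid body, and 6.14, 7.75, 7.08 and 5.94 in ganglion. Carotid body overlapped both other tissues, and the lowest adrenal arrays lay just above the highest ganglion array. Those adrenal arrays, replicates 3 and 4, list 1 identical value (7.8331), a repeat like that of Sgk1. Adrenal medulla (8.67 ± 1.00, n = 4) exceeded ganglion (6.73 ± 0.84, n = 4) 3.84-fold (log2 1.94, SE 0.58, limma adjusted p = 0.024). This call rested on single arrays. It was lost without adrenal medulla replicate 1 (1.55) or 2 (1.78) and without ganglion replicate 1 (1.75) or 4 (1.68), under array weights (1.63), and without adrenal medulla replicates 1 and 2 together (1.11, limma adjusted p = 0.244; over all alternatives 0.0143 to 0.244). Carotid body exceeded ganglion by 1.58 (SE 0.63, limma adjusted p = 0.0795), and by 1.92 with an adjusted p of 0.0422 without ganglion replicate 2. Carotid body minus adrenal medulla was -0.37 (SE 0.63, limma adjusted p = 0.719).

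The genes most like Zbtb16 over the 11 arrays were ND2, a mitochondrially encoded subunit of respiratory complex I (root mean square difference 0.63), Fos (0.64), the immediate early transcription factor, and Phf2 (0.69), a histone demethylase. The likeness is loose beside that of the closest genes of Hsd11b1 and Errfi1, since Zbtb16 itself deviates from its mean by 1.18. Fos read 9.89, 9.28, 7.27 and 7.23 in adrenal medulla, 8.82, 7.51 and 7.26 in carotid body, and 6.07, 5.76, 5.40 and 5.61 in ganglion. Adrenal medulla replicates 1 and 2 and carotid body replicate 1 were the arrays highest in both genes within their tissues. Fos was picked here for its closeness to Zbtb16 over these same arrays, so this match follows in part from the choice. In ganglion the genes parted: Fos was highest on replicate 1 (6.07), where Zbtb16 read 6.14, and Zbtb16 on replicate 2 (7.75). Per2, another clock repressor, read 8.96, 8.00, 7.03 and 7.09 in adrenal medulla, and was high on the same adrenal arrays as Zbtb16 and Fos. Over all 11 arrays its root mean square difference from Zbtb16 was 0.80, rank 74 among 19046 protein-coding genes.

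Clock genes moved between arrays as well. Arntl, the activator BMAL1, was singled out after its values were seen: it read 7.61 on adrenal medulla replicate 1, 8.34 on carotid body replicate 2 and 7.91 on ganglion replicate 2, and 9.42 or more on the other arrays. Nr1d1, the REV-ERB repressor of Arntl, was highest within its tissue on those same arrays, at 14.30, 12.99 and 10.90. The labels give no time of collection. With these 3 arrays left out, a choice made after seeing the data, Zbtb16 in adrenal medulla minus ganglion was 1.89 (limma adjusted p = 0.0506). The part of the collection time in the spread of Per1 and Zbtb16 was not tested.

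**Figure D4:**
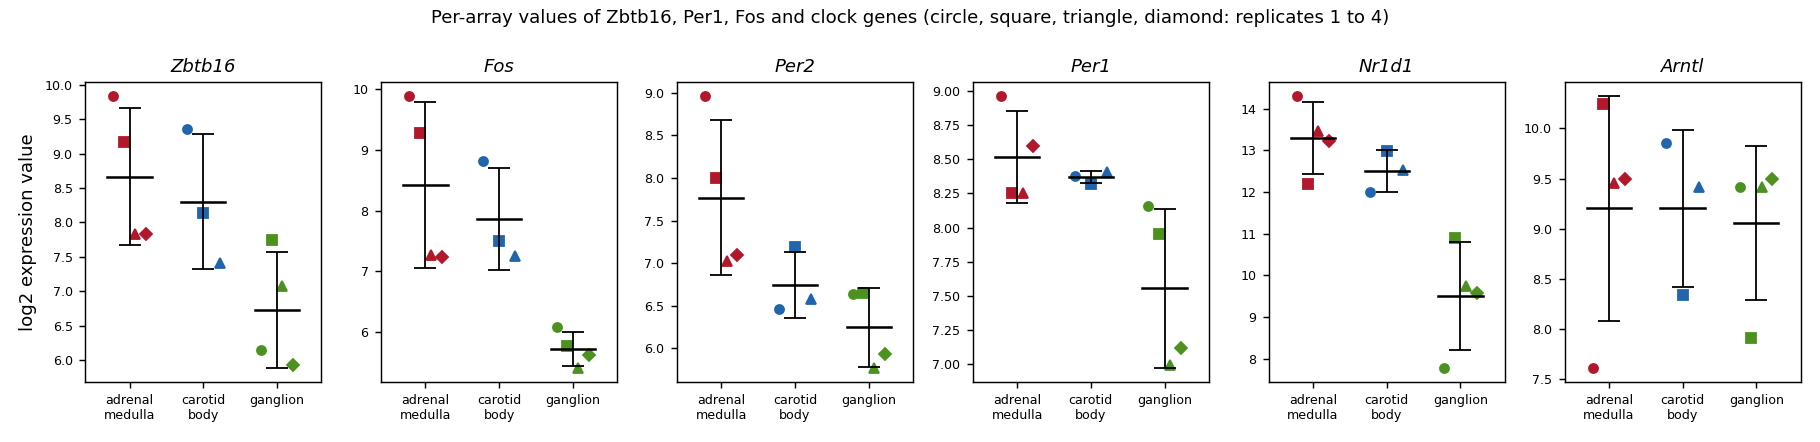
Log2 expression value of Zbtb16, Fos, Per2, Per1, Nr1d1 and Arntl on each array, by tissue, with mean and SD in black; each panel has its own vertical scale. Adrenal medulla replicates 1 and 2 (circle, square) are high in Zbtb16, Fos and Per2, and 1 array of each tissue is low in Arntl and high in Nr1d1.

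As lists, clock and immediate early genes were called in 1 direction only against ganglion. Over all genes tested, 5.72% were called higher and 7.51% lower in adrenal medulla than in ganglion, and 5.61% and 8.28% in carotid body. Of the genes above the bound, these shares were 9.69% and 12.7% for adrenal medulla, and 9.5% and 14% for carotid body. Between carotid body and adrenal medulla the shares were 6.07% higher and 4.95% lower, or 10.2% and 8.37% above the bound. Of 13 clock genes, 6 were called higher in adrenal medulla than in ganglion and 0 lower (list median 0.95 against -0.08 for all genes), among them Nr1d1 by 3.80, Bhlhe40 by 2.59, Dbp by 2.40 and Per2 by 1.52. The 6 include Bhlhe41 (1.05), whose call was lost without adrenal medulla replicate 1 or 3 or ganglion replicate 3 or 4 (0.90 to 0.98). Carotid body had 4 higher than ganglion and 0 lower (Nr1d1 by 3.00, Npas2 by 2.03, Bhlhe40 by 1.06 and Nr1d2 by 1.02), a count of 2 without ganglion replicate 4. The Nr1d2 call was also lost without ganglion replicate 1 or 3 and without carotid body replicate 2 or 3 (0.84 to 1.06 over these 5 arrays). Against adrenal medulla, carotid body was higher in Npas2 (1.92) and lower in Bhlhe40 (-1.53), and the count of lower genes was 3 without adrenal medulla replicate 2 or carotid body replicate 2. Of 14 immediate early genes, 8 were higher than in ganglion in each other tissue and 0 lower. Egr1 led in carotid body (2.47, with Zfp36 at 2.21), and Fosl2 led in adrenal medulla (5.69, with Egr1 at 3.63 and Jun at 3.31). Fos, with 1 ganglion array under the bound, was at least 4.40-fold higher than ganglion in carotid body and at least 6.48-fold in adrenal medulla, and the former call was lost without carotid body replicate 1 or ganglion replicate 3. Carotid body was below adrenal medulla in 4 of them (Fosl2 by -4.33, Jun by -2.00, Egr1 by -1.15 and Btg2 by -1.02, the last named for its place in the count) and above it in Nr4a2 (1.44). The count of 4 was 2 without adrenal medulla replicate 1 and without carotid body replicate 2 or 3, where Egr1 and Btg2 lost their calls.

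A wider list of 22 genes that glucocorticoids are known to induce in some tissue, 21 of them measured, was called in both directions between adrenal medulla and carotid body. Carotid body was called higher in 8 and lower in 4, with a median difference of 0.75 against 0.05 for all genes. The shares called were 6.07% and 4.95% of all genes, and 10.2% and 8.37% of those above the bound. Pdk4, the kinase that restrains pyruvate dehydrogenase, was 26.6-fold higher in carotid body (12.82 ± 0.11 against 8.08 ± 0.39, limma adjusted p = 1.24e-07), and Anxa1, the anti-inflammatory protein annexin A1, was 6.43-fold higher. Plin4, a lipid droplet coat protein of adipocytes, Sult1a1, a sulfotransferase, Klf9, Cebpd, Cdkn1a and Fam107a were the other 6. The Cdkn1a call (1.55) rested on single arrays: it was lost without carotid body replicate 1 (0.93), the highest of its tissue at 10.77, and without adrenal medulla replicate 1 (limma adjusted p = 0.0576) or 4 (limma adjusted p = 0.0544). The 4 genes higher in adrenal medulla were Pnmt (14.13 ± 0.68 against 5.57 ± 0.11, 378-fold), the metallothioneins Mt2 (18.1-fold) and Mt1 (5.61-fold), and Bcl6, a transcriptional repressor (2.93-fold). Pnmt is also a marker of chromaffin cells. Pnmt and the metallothioneins thus shared the direction of Fkbp5, and Pdk4, Anxa1 and Klf9 that of Tsc22d3.

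In the same list, carotid body was called higher than ganglion in 10 of 21 genes and lower in 0 (median 0.79 against -0.02). The shares called were 5.61% and 8.28% of all genes, and 9.5% and 14% of those above the bound. The 10 included Txnip, the thioredoxin inhibitor (23-fold), Anxa1 (9.04-fold), Pdk4 (8.87-fold) and Plin4 (6.35-fold). Of the 10, Cebpd (1.02) lost its call without carotid body replicate 2 (0.95) or 3 (0.84) or ganglion replicate 1 (0.96). Adrenal medulla was higher in 7 and lower in 2 (median 0.49 against -0.08). For this comparison the shares were 5.72% and 7.51% of all genes, and 9.69% and 12.7% of those above the bound. Pnmt, under the bound in ganglion, was at least 411-fold higher, Mt2 31.4-fold, Txnip 13.6-fold and Mt1 9.57-fold, whereas Pdk4 was 3.00-fold and Fam107a 2.63-fold lower. Of the list, Dusp1, a phosphatase of MAP kinases, and Txnip were called higher than ganglion in both other tissues. Tat, an enzyme that glucocorticoids induce in liver, lay under the bound in all 3 tissues. Carotid body arrays spread in Mt2 from 11.10 to 14.14, wider than the 15.94 to 17.36 of adrenal medulla. The adipocyte and fibroblast marker lists given above were highest in carotid body, as were Pdk4, Anxa1 and Plin4. The cortical list was highest in adrenal medulla, as were Pnmt, Mt1 and Mt2. Not every gene of the list followed these orders: Fam107a averaged 8.91 in carotid body and 8.76 in ganglion. What these cell types contributed was not tested.

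**Figure D5:**
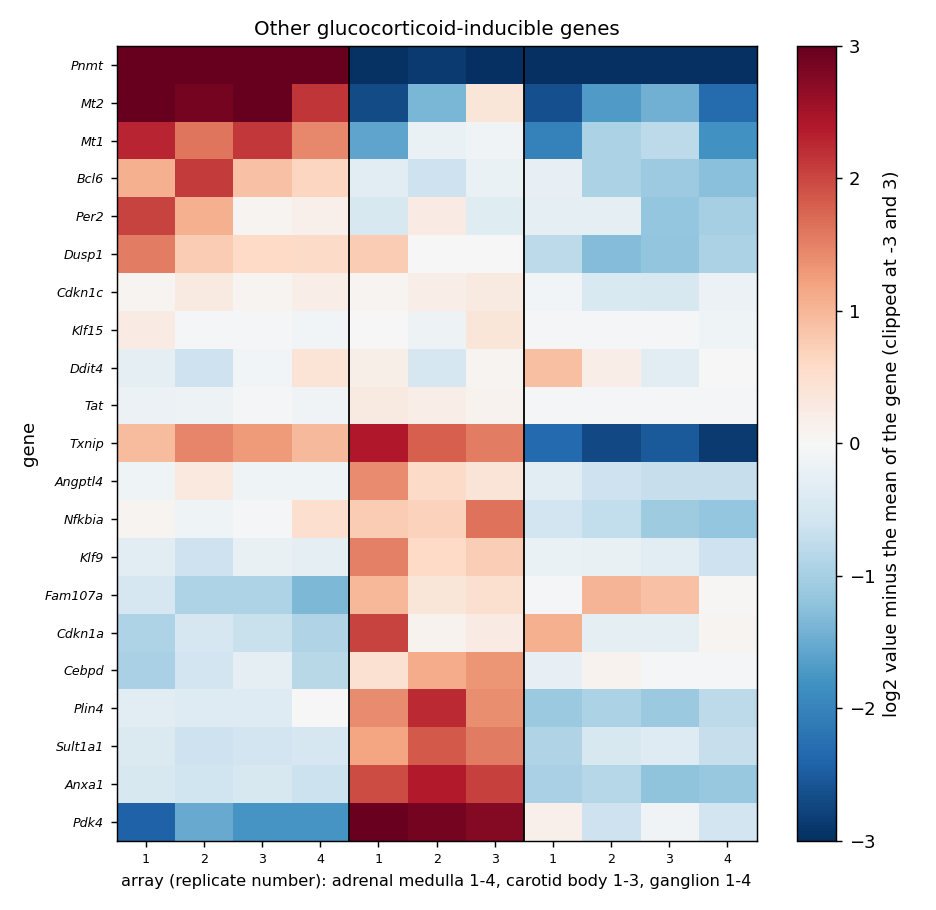
Log2 value minus the gene's mean over the 11 arrays for the 21 measured glucocorticoid-inducible genes beside the 10 described; columns are arrays in tissue order, colours are clipped at -3 and 3. Genes at the top are higher in adrenal medulla than in carotid body (Pnmt, Mt2, Mt1, Bcl6) and genes at the bottom the reverse (Pdk4, Anxa1, Sult1a1, Plin4).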

How the data were processed

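RNA from 11 tissue pools was measured on Affymetrix arrays of the mouse transcriptome, per the labels. The authors deposited log2 values. Per the submitters' processing notes these came from RMA as run by the Affymetrix Expression Console; versions and the build are not given in the sources used here. The highest value per array was 19.65 to 19.93, above the range of a 16-bit scan on a log2 scale, so differences hold on the deposited scale only. RMA as a method draws arrays towards a common distribution and compresses low values. The number of arrays limits the precision.

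Of 72688 features, 30604 transcript clusters carried 1 gene symbol (2146 carried several and were left out). The brightest cluster of each gene gave 30139 genes, with 819 symbols updated through Entrez identifiers. Tissue was the only factor of 1 limma fit (limma 3.58.1, R 4.3.3) over all 11 arrays, tested on simulated data first. Alternatives covered centring, quantile normalization, dim genes, gene type, clusters, array weights, the prior, the threshold, the replicate number and each array left out; 2 more array sets were chosen after seeing the data. The labels state no pairing by replicate number. Deviations from the tissue means correlated at -0.22 to 0.35 for same-numbered arrays, with 3 of 10 pairs over 0.1. Other-numbered arrays gave -0.43 to 0.43, with 13 of 30 over 0.1. Whether arrays of different tissues shared mice or a collection cannot be told from these correlations. The members and lists were chosen with earlier results of these data known. From each list, up to 4 called genes per comparison with the largest difference are named, and for the 3 members with the widest tissue means the 3 most alike genes. Arntl, Btg2, Bcl6, Fam107a and others given to complete a short count were named after their values were seen.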

Additional observations from a re-analysis of the deposited data

Results flagged for a closer look

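Of 20 sets of 4 arrays examined (10 genes in adrenal medulla and in ganglion), 1 held an array far from the rest. Tsc22d3 read 7.98 on adrenal medulla replicate 1, while the other adrenal arrays read 7.60 to 7.64, a gap of 0.88 of the whole range, above the critical value of Dixon's test for 4 arrays. Chance flags about 1 in 20 such sets. Without this array, Tsc22d3 in carotid body minus adrenal medulla was 1.52 in place of 1.43. The same array was the lowest of all in Arntl. Sets of 3 carotid body arrays were not tested.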

How the results depend on the processing

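No difference of the 10 genes that was called changed direction under any alternative, and of 627 recomputed values 599 kept their side of the threshold, 21 gained a call and 7 lost one. All 7 losses were Zbtb16 in adrenal medulla minus ganglion. The gains lay close to the 2-fold limit, apart from Zbtb16 in carotid body minus ganglion, and the cause of these changes was not tested. In carotid body against adrenal medulla, 1 gene was called higher, against 3 after quantile normalization and 1 to 2 with 1 array left out. Those higher in adrenal medulla than in ganglion numbered 3, against 6 after median centring, 6 after quantile normalization and 2 to 5 with 1 array left out. With the adjusted p alone as the limit, carotid body was higher in 3 and lower in 2 against adrenal medulla and higher in 7 against ganglion, and adrenal medulla was higher in 9 and lower in 1 against ganglion, Hsd11b2 among them although its means lie under the bound. Median centring moved the median of all genes for carotid body minus adrenal medulla from 0.05 to -0.10, and turned that split of all genes from 1828 higher and 1492 lower to 1575 and 1967. With a replicate block, member counts were as in the fit without it, Zbtb16 in adrenal medulla minus ganglion was 1.94 (limma adjusted p = 0.0162), and the split of all genes in carotid body against adrenal medulla was 1795 higher and 1507 lower. Low signal limits Hsd11b2 throughout and Hsd11b1 in ganglion.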
